A study of Mus musculus with 25 samples.

Results

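The germ cell isoforms of energy enzymes were described here in the RNA of mouse sperm by 9 genes, namely Pgk2, Gapdhs, Ldhc, Aldoart1, Aldoart2 and Eno4 of glycolysis and Cox8c, Cox6b2 and Cyct of the respiratory chain. They were chosen by symbol, for their known use in spermatogenesis, from a table of 24358 genes, and all 9 were found with a valid estimate in every condition. The sperm came from 14-week-old males and swam out of the incised tail of the epididymis. C57BL/6J dams received 300 mg/kg/day of the plasticizer DEHP by mouth from embryonic day 9 to 19, or corn oil alone, which gave the first generation conditions C57.D300.F1 and C57.CTL.F1. FVB/N dams treated in the same ways gave FVB.D300.F1 and FVB.CTL.F1. C57.D300.F2 were sons of DEHP-exposed C57BL/6J F1 males and unexposed females, and no vehicle lineage was carried to F2. Both strains are inbred, and each condition held 5 libraries.

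Sperm tails consume ATP along their whole length, and much of it comes from glycolysis enzymes anchored to the fibrous sheath of the tail. Several of these enzymes, and some subunits of the respiratory chain, exist in mice as forms made from genes of their own that are active in meiotic and haploid male germ cells. Some of these genes are intronless copies of a gene used throughout the body. Pgk1, for example, lies on the X chromosome, which is silenced in meiosis, while its autosomal copy Pgk2 is active there. Transcription ceases when the sperm nucleus condenses, so the messenger RNAs of a mature spermatozoon are largely carried over from earlier stages.

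In GENCODE M21 on GRCm38, Pgk2 on chromosome 17, Aldoart1 on chromosome 4 and Aldoart2 on chromosome 12 each consist of 1 exon. The other members have introns, from 2 exons in Cox8c to 14 in Eno4. Gapdhs, Ldhc and Cox6b2 lie on chromosome 7 but far from each other. Ldhc starts just downstream of Ldha, the gene of the muscle type of lactate dehydrogenase, on the same strand. RefSeq promoters were found for 7 of the 9 members. For Gapdhs and Ldhc 2 promoters each were listed, and the upstream promoter was used. Those of the 3 members with the highest counts are shown because these genes carried most of the counts of the isoforms. They run 5′ to 3′ toward the start site, were cut so that at most 30 bases lie in an annotated exon, and belong to chr17:40208611-40208859 on the minus strand for Pgk2, chr7:30743682-30743931 on the minus strand for Gapdhs and chr7:46861013-46861232 on the plus strand for Ldhc (GRCm38.p6). Capitals mark matches to the CCAAT box (CCAAT), the GC box (GGGCGG) and the core of the cyclic AMP response element (TGACG), each searched on both strands.
Pgk2: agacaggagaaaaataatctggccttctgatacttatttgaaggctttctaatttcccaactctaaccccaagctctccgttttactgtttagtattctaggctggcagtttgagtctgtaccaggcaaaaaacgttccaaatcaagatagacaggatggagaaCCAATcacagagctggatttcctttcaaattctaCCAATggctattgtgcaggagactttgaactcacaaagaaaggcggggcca
Gapdhs: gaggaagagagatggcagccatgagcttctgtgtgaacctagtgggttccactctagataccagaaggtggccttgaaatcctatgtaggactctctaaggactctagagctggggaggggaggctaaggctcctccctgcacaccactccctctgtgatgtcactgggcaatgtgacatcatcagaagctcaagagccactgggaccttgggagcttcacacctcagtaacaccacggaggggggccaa
Ldhc: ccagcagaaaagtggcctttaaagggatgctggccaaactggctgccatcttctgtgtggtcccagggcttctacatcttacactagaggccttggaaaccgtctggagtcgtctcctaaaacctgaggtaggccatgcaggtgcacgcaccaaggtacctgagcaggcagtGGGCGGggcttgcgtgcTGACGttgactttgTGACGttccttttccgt
Pgk2 had CCAAT at -86 to -82 and at -52 to -48 from the start site. Ldhc had TGACG at -61 to -57 and at -47 to -43, and GGGCGG at -78 to -73. By the GENCODE annotation, the TGACG at -47 to -43 lies inside an exon of Ldhc and that at -61 to -57 spans the start of this exon. Gapdhs had none of these letters in its 250 bases. Of the 7 promoters, 3 held CCAAT (Pgk2, Cox6b2 and Cyct), 2 held GGGCGG (Ldhc and Cox6b2) and 1 held TGACG (Ldhc). Among 32851 RefSeq promoters of the same length, the shares were 33.8%, 32.7% and 17.8%. The full palindrome TGACGTCA, which contains TGACG, occurred in 1.55% of all promoters and in 0 of the 7.

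The aldolase copies resemble their parent gene so closely that their counts need care. Over the coding sequence, Aldoart1 was identical to Aldoa at 93.9% of aligned bases and Aldoart2 at 91.8%, against 79.3% for Pgk2 and Pgk1, 76.2% for Cyct and Cycs, 73.9% for Ldhc and Ldha and 71.5% for Gapdhs and Gapdh. The first 90 coding bases of Aldoart2 and the bases of the other genes aligned to them are printed to show this likeness, with capitals for bases unlike Aldoa.
Aldoa: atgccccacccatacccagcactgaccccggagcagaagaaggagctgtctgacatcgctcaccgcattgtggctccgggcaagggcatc
Aldoart1: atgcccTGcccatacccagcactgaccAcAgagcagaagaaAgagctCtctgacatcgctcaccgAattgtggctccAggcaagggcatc
Aldoart2: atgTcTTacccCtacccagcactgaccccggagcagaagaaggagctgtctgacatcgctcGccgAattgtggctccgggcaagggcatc
In this stretch Aldoart1 differed from Aldoa at 8 bases and Aldoart2 at 6, and the copies differed from each other at 10. Reads as short as 18 bases were kept by the authors. Of all 18-base windows of the coding sequence, 50.2% in Aldoart1 and 37.8% in Aldoart2 also occurred in a transcript of another gene, mostly Aldoa, and the share was at most 9.71% in each of the other 7 members. With windows of 50 bases it was 9.60% in Aldoart1 and 0.479% in Aldoart2. How such reads were divided among genes is not given in the sources used here, so the counts of both copies are uncertain. Eno4 overlaps Hspa12a and Gapdhs overlaps antisense RNAs on the opposite strand, and the reads were mapped with strand taken into account.

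The deposited values are estimated counts from Cuffdiff, 1 per gene and condition, which combine the 5 libraries and are not divided by gene length. The ± values are SDs under Cuffdiff's variance model and not a measured spread of libraries, so no replicate check exists and p-values were not computed. The counts of all genes summed to between 6921688 and 8602900 per condition. The C57BL/6J F1 conditions rest on 10 reused libraries and the other 3 conditions on 15 new ones, so a difference between a reused and a new condition cannot be told apart from one between the library sets. The label sperm was checked with 15 RNAs of haploid germ cells, among them the protamines Prm1 and Prm2 and the tail proteins Akap4 and Odf1. All 15 had at least 10 counts in every condition, with sums of 106624 in the vehicle F1, 90038 in the DEHP F1 and 36583 in the F2 of C57BL/6J, and of 8745 in the vehicle F1 and 10454 in the DEHP F1 of FVB/N. In bulk RNA, fewer germ cells and less RNA per cell cannot be told apart. RNAs of other cells varied as well. The 10 liver markers summed to 243076, 203169, 5351, 1262 and 829 counts in the same order, and all 10 had at least 10 counts in every condition. The 8 seminal vesicle markers summed to 231112 in C57.CTL.F1 and to between 690 and 2139 elsewhere, with 1 of them at 0 in FVB.D300.F1. Of 12 epididymal markers, Crisp1 had no valid estimate in 3 conditions, and the other 11 summed to 93278 in FVB.D300.F1 and to between 24193 and 37487 in the other 4 conditions. Crisp1 itself was estimated at 219328 counts after DEHP in FVB/N and at 108274 in the C57BL/6J vehicle F1, each below its model SD. The part of these RNAs in the results below was not tested.

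Pgk2, the germ cell phosphoglycerate kinase, carried the highest counts of the 9 genes. It had 3438 ± 1186 counts in the vehicle F1 of C57BL/6J, 3103 ± 967 in the DEHP F1 and 1320 ± 337 in the F2, and in FVB/N it had 268 ± 66.2 after vehicle and 386 ± 95.4 after DEHP. Both C57BL/6J F1 conditions were highest and within the model SD of each other, F2 lay below them and both FVB/N conditions lay far below all C57BL/6J conditions. Gapdhs encodes the glyceraldehyde-3-phosphate dehydrogenase of the fibrous sheath. Its counts were 1463 ± 407, 1279 ± 330 and 638 ± 150 in the C57BL/6J vehicle F1, DEHP F1 and F2, and 127 ± 32.8 and 151 ± 39.3 in FVB/N after vehicle and DEHP. The order was the same as for Pgk2, and neither pair of F1 conditions within a strain differed by more than the model SD.

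Ldhc encodes the lactate dehydrogenase of spermatocytes and sperm. It had 673 ± 172, 604 ± 147 and 390 ± 90.9 counts in the C57BL/6J conditions in the same order, and 127 ± 32.7 and 188 ± 51.2 in the FVB/N conditions after vehicle and DEHP. The conditions stood in the order seen for Pgk2, with a smaller distance between the strains. Aldoart1 and Aldoart2 are the intronless germ cell copies of aldolase A. Aldoart1 had 355 ± 89.0, 260.1 ± 62.5 and 117 ± 30.3 counts in the C57BL/6J conditions, and 31.5 ± 11.2 and 48.6 ± 15.6 in FVB/N after vehicle and DEHP. Aldoart2 had 164 ± 42.2, 126 ± 32.9 and 70.8 ± 20.0 counts in the C57BL/6J conditions, and 12.2 ± 5.66 and 26.2 ± 9.70 in FVB/N after vehicle and DEHP. Both copies followed Pgk2 and Gapdhs. The count of Aldoart1 per count of Aldoart2 stayed between 1.66 ± 0.634 in C57.D300.F2 and 2.59 ± 1.52 in FVB.CTL.F1, a difference below the model SDs. Eno4, an enolase needed for the assembly and glycolysis of the sperm tail, had 35.1 ± 11.8, 43.2 ± 13.9 and 26.0 ± 9.54 counts in the C57BL/6J conditions and 17.6 ± 7.21 and 24.1 ± 8.94 in FVB/N after vehicle and DEHP. No neighbours in its order of conditions differed by more than the model SD.

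The respiratory chain members had lower counts. Cox8c encodes a germ cell form of the small subunit VIII of cytochrome c oxidase, the last complex of the chain. It had 64.3 ± 18.7, 69.0 ± 20.0 and 44.5 ± 14.4 counts in the C57BL/6J conditions, and 14.5 ± 6.32 and 20.1 ± 8.0 in FVB/N after vehicle and DEHP. It resembled the glycolysis members in its low FVB/N values. Cox6b2 encodes the germ cell form of subunit VIb of the same complex. Its counts were 14.9 ± 6.77, 17.2 ± 7.30 and 16.5 ± 7.18 in the C57BL/6J conditions and 9.97 ± 5.30 and 8.42 ± 4.70 in FVB/N after vehicle and DEHP. The model SDs of all 5 values overlapped. Cyct, the cytochrome c of the testis, had 12.5 ± 5.57, 7.15 ± 3.87 and 6.53 ± 3.61 counts in the C57BL/6J conditions and 1.87 ± 2.00 and 5.42 ± 3.87 in FVB/N after vehicle and DEHP. Its value in FVB.CTL.F1 was under the 3 counts taken as the limit of detection, which covers counting error only. At this depth, a difference between neighbouring conditions was not detectable for Cox6b2 or Cyct.

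**Figure D1:**
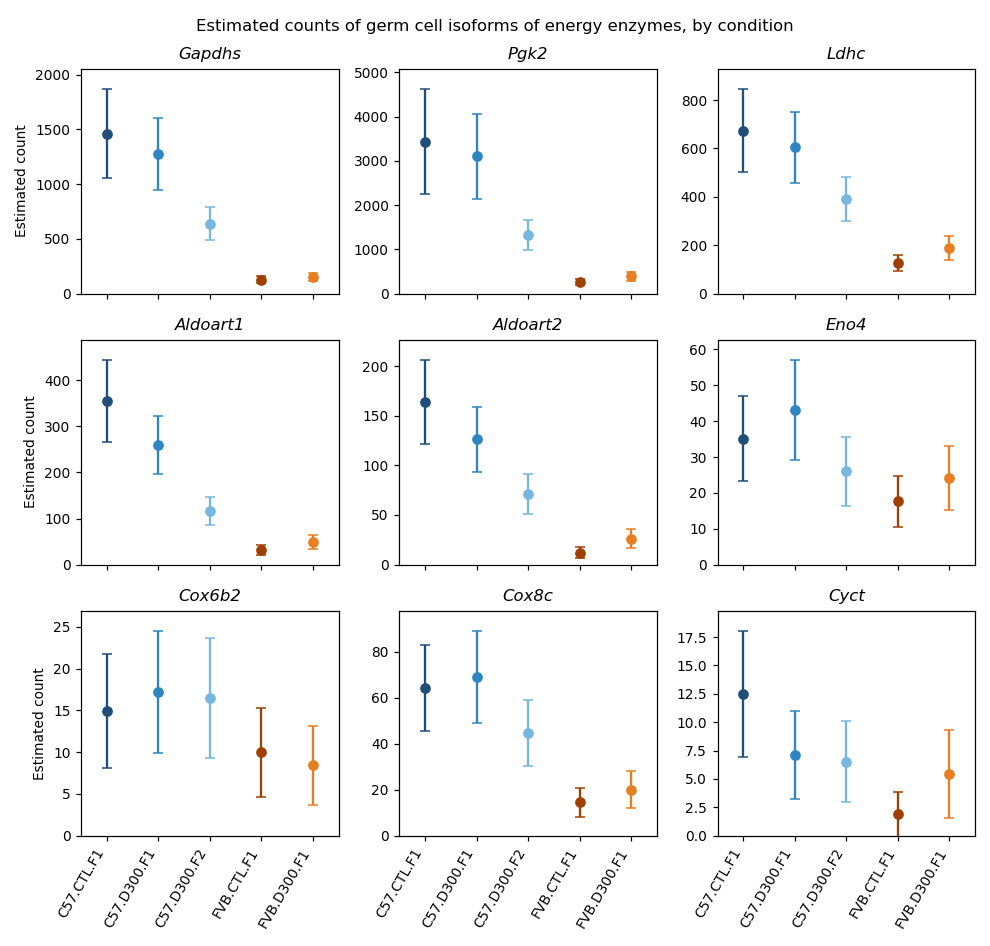
Estimated count (linear axis from 0, a scale of its own in each panel) of each of the 9 genes in the 5 conditions; points are the condition values and bars 1 SD of Cuffdiff's model. Pgk2 goes from 3438 counts in C57.CTL.F1 to 268 in FVB.CTL.F1, while the values of Cox6b2 lie between 8.42 and 17.2.

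Both FVB/N values were below all 3 C57BL/6J values for 9 of 9 members, an order that 32.4% of 17701 genes showed. The F2 value was below both C57BL/6J F1 values for 8 members, against 43.9% of genes, with Cox6b2 as the exception. These orders held together for 8 members and for 21.8% of genes. The gap between the strains was within the model SD for Eno4, Cox6b2 and Cyct. The gap between F2 and the nearest F1 value was within it for Eno4, Cox8c and Cyct. C57.CTL.F1 was the highest condition for 6 members, and C57.D300.F1 was highest for Eno4, Cox6b2 and Cox8c. FVB.CTL.F1 was the lowest for 8 members, and Cox6b2 was lowest in FVB.D300.F1.

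Divided by exon length, taken as the joined exons of all annotated transcripts of a gene, the members spanned a wide range of levels. In C57.CTL.F1, Pgk2 had 2114 counts per kb and Gapdhs 908, followed by Ldhc with 426, Aldoart1 with 173, Cox8c with 140.4 and Aldoart2 with 98.8 counts per kb. Cyct, Eno4 and Cox6b2 had between 13.5 and 19.0 counts per kb. The short Cox8c transcript thus stood next to the aldolase copies on this scale, although its count was lower than theirs.

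Prenatal DEHP was compared with vehicle within each strain, where both conditions come from the same library set. In C57BL/6J, no member reached a difference of 1 log2 unit in the count with 1 added, the limit used here, applied to genes that reached 10 counts in either condition of a pair. Of 16825 genes, 2.24% did so in either direction. The median log2 ratio of the members was -0.16, from -0.72 in Cyct to 0.29 in Eno4, beside -0.15 for the 15 haploid RNAs and -0.01 for all genes. All 9 differences were smaller than their model SD. In FVB/N, 1 of the 7 members with enough counts was higher by 1 log2 unit after DEHP, against 2.16% of 16471 genes. It was Aldoart2, at 1.05 ± 0.81. The median of the 9 members was 0.53, beside 0.35 for the haploid RNAs and 0.00 for all genes, and 8 of 9 ratios were above 0. Scaled to the haploid RNAs, the members' median was 0.13, Aldoart2 was at 0.70 and Gapdhs at -0.15. The log2 ratios of Pgk2 (0.53 ± 0.50), Ldhc (0.57 ± 0.54) and Aldoart2 came from count differences that exceeded the model SD, and the differences of the other 6 did not. In the same comparison 10 of 11 epididymal markers with enough counts were higher by the threshold, and their part in these ratios was not tested.

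The response to DEHP in FVB/N minus that in C57BL/6J had a median of 0.68 log2 units over the members, beside 0.56 over the haploid RNAs and 0.03 over all genes. It reached 1 log2 unit in 3 of 9 members, against 4.45% of 17556 genes. These were Aldoart1 (1.06 ± 0.84), Aldoart2 (1.42 ± 0.96) and Cyct (1.89 ± 1.61), each with a lower value after DEHP in C57BL/6J and a higher one in FVB/N. For Cyct it was 1.41, below that model SD, when its FVB.CTL.F1 count, which lay under the limit of detection, was set to 3. Scaled to the haploid RNAs, the difference was 0.52 for Aldoart1 and 0.92 for Aldoart2, and for Aldoart1 it was 0.78 with equal totals.

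The second generation was compared with both C57BL/6J F1 conditions, although the library sets differ. Against C57.CTL.F1, 4 of 9 members were lower by 1 log2 unit, beside 10.2% of 17114 genes. Aldoart1 was lower by 3.03-fold, Pgk2 by 2.60-fold, Aldoart2 by 2.31-fold and Gapdhs by 2.29-fold, and all of these differences exceeded the model SD. Ldhc was lower by 1.73-fold and also exceeded it, while Cox8c, Eno4, Cyct and Cox6b2 stayed within it. The median of the members was -0.84, beside -1.18 for the haploid RNAs, of which 12 of 15 were lower by the threshold. Against C57.D300.F1, 3 of the 8 members with enough counts were lower by 1 log2 unit, beside 8.35% of 17133 genes. They were Pgk2 (2.35-fold), Aldoart1 (2.22-fold) and Gapdhs (2.00-fold). The median was -0.71, beside -0.98 for the haploid RNAs. All 10 liver markers were lower by the threshold in both comparisons, with medians of -5.79 and -5.25, far beyond the members. When conditions were scaled to the haploid RNAs, 0 members were lower by the threshold in either comparison, the sign turned for 6 members relative to the vehicle F1 and for 7 relative to the DEHP F1, and Cox6b2 was then higher by the threshold than in the vehicle F1. Its ratio was 1.22, beside a median of 1.15 for all genes, so this call does not set Cox6b2 apart. Of all genes, 3.30% and 3.13% were then lower by the threshold against the vehicle F1 and the DEHP F1.

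By the members' median, the unexposed strains stood farther apart than any other pair of conditions compared. In unexposed FVB/N against unexposed C57BL/6J, 7 of 9 members were lower by 1 log2 unit, beside 18.8% of 17086 genes. The same number was lower by 2 log2 units, beside 8.88% of genes. Aldoart2 was lower by 13.5-fold, Pgk2 by 12.8-fold, Gapdhs by 11.5-fold, Aldoart1 by 11.3-fold, Ldhc by 5.31-fold and Cox8c by 4.42-fold. Cyct was at least 4.15-fold lower, computed against 3 counts per condition. Eno4 (1.99-fold) did not reach the limit, and the difference of Cox6b2 (1.5-fold) was within the model SD. The median was -2.40, beside -3.03 for the haploid RNAs and -0.03 for all genes. Between the DEHP conditions of the strains, 6 of 8 members were lower by 1 log2 unit, beside 19.9% of 17377 genes, with a median of -1.73 against -2.64 for the haploid RNAs. Gapdhs was 8.50-fold and Pgk2 8.03-fold lower in FVB.D300.F1.

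FVB.CTL.F1 and C57.D300.F2 are both new libraries, so this comparison of strains stays within 1 library set, but it also differs in generation and in DEHP lineage. Here 6 of 8 members were lower in FVB/N by 1 log2 unit, beside 11.6% of 16969 genes. Aldoart2 was lower by 5.82-fold, Gapdhs by 5.01-fold, Pgk2 by 4.93-fold, Aldoart1 by 3.73-fold, Ldhc by 3.07-fold and Cox8c by 3.06-fold, each beyond the model SD. The median was -1.61, beside -1.93 for the haploid RNAs, all 15 of which were lower by the threshold. The liver markers had a median of -1.84 here. Scaled to the haploid RNAs, 0 members were lower by the threshold in this comparison or in the other 2 between strains. The signs of Ldhc, Eno4, Cox6b2, Cox8c and Cyct turned in all 3, and 2 to 4 members, Eno4 and Cox6b2 among them each time, were then higher in FVB/N by the threshold. That scaling placed the median of all genes at 3.19 log2 units between the unexposed strains, 2.60 between the DEHP conditions and 2.02 here. Each member called higher lay below that median, so these calls do not mark the members as raised in FVB/N. Of all genes, 1.935%, 2.04% and 0.451% were then lower by the threshold, in the same order.

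**Figure D2:**
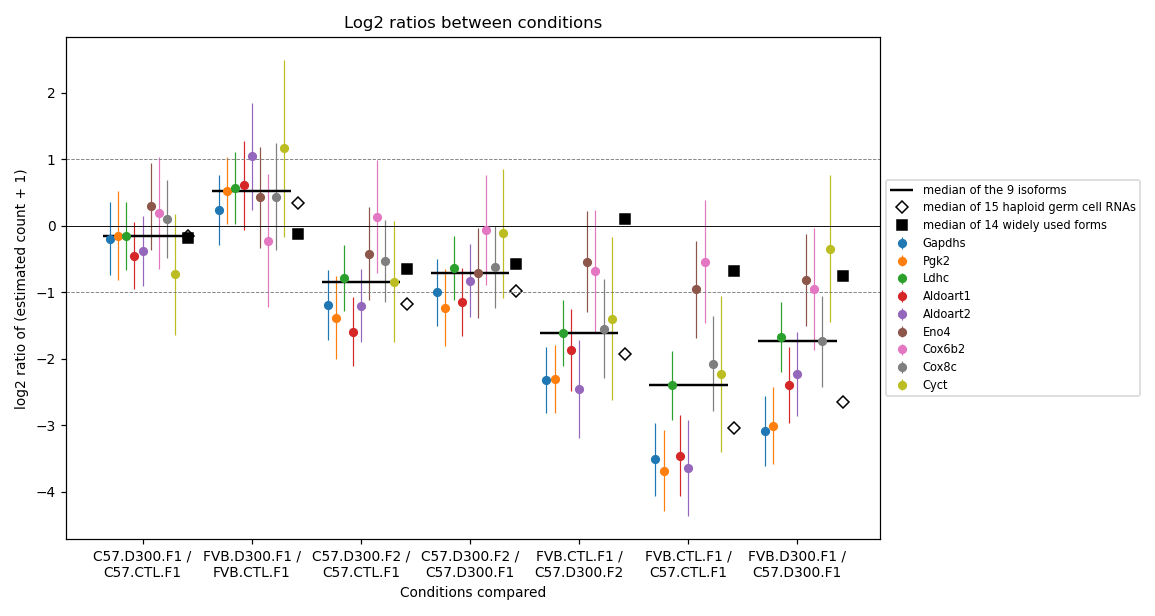
Log2 ratio of the estimated count with 1 added for each member (points, with bars of 1 model SD) in the 7 comparisons of conditions, with the medians of the 9 members (line), of the 15 haploid germ cell RNAs (open diamond) and of the 14 genes of the widely used forms (filled square); dashed lines mark 1 log2 unit in each direction. The members' median goes from -0.16 between the C57BL/6J F1 conditions to -2.40 between the unexposed strains, and lies above that of the haploid RNAs in the 5 comparisons between generations or strains.

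The ratio of a germ cell form to its widely used form within the same condition does not depend on scaling between conditions. It can still vary with the share of germ cell RNA in a condition, whose part in these ratios was not tested. Between the unexposed strains, the haploid RNAs had a median log2 ratio of -3.03 and the genes of the widely used forms -0.68. Pgk2 had 2.36 ± 1.04 counts per count of Pgk1 in the vehicle F1 of C57BL/6J, 2.49 ± 1.03 in its DEHP F1 and 1.61 ± 0.564 in its F2, but 0.328 ± 0.113 and 0.566 ± 0.194 in FVB/N after vehicle and DEHP. Gapdhs had 1.68 ± 0.621, 1.45 ± 0.536 and 1.15 ± 0.383 counts per count of Gapdh in the C57BL/6J conditions, and 0.185 ± 0.0650 and 0.262 ± 0.0924 in the FVB/N conditions. For Gapdhs in C57.D300.F1 and C57.D300.F2, equal counts of both forms lay within the model SD of the ratio. By the condition values, the germ cell form of both enzymes had more counts than the widely used form in all 3 C57BL/6J conditions. It had fewer in both FVB/N conditions. The same held per kb of exon, where Pgk2 and Pgk1 had 2114 and 649 counts per kb in unexposed C57BL/6J and 165 and 364 in unexposed FVB/N. Gapdhs and Gapdh had 908 and 210.2 counts per kb in unexposed C57BL/6J and 79.1 and 167 in unexposed FVB/N. These lengths join the exons of all annotated transcripts, which gives 4133 bases for Gapdh and 1610 for Gapdhs. A shorter length for Gapdh would raise its counts per kb, so the size of this gap depends on the length chosen.

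The aldolases showed the same change at lower ratios. Aldoart1 had 0.170 ± 0.0647 counts per count of Aldoa in C57.CTL.F1, 0.0816 ± 0.0300 in C57.D300.F2 and 0.0195 ± 0.00858 in FVB.CTL.F1, and Aldoart2 had 0.0783 ± 0.0302, 0.0493 ± 0.0190 and 0.00752 ± 0.00401. Cox8c had 0.0995 ± 0.0372 counts per count of Cox8a in the unexposed C57BL/6J and 0.0213 ± 0.0106 in the unexposed FVB/N, while Cox8a itself stayed between 577 and 683 counts in all 5 conditions. For lactate dehydrogenase, Ldhc had 0.453 ± 0.170 counts per count of Ldha in the C57BL/6J vehicle F1 and 0.588 ± 0.197 in the F2, a difference within the model SDs, while Ldha went from 1485 to 663 counts. Per count of Ldhb, the heart type, Ldhc went from 0.455 ± 0.173 to 0.182 ± 0.0665, with Ldhb at its highest in F2 at 2144 counts. In FVB.CTL.F1 both ratios were low, at 0.151 ± 0.0538 and 0.143 ± 0.0513. The ratios of Eno4 to Eno1 lay between 0.0508 and 0.10 and those of Cox6b2 to Cox6b1 between 0.0142 and 0.0276, each with overlapping model SDs. Cyct had 0.0387 ± 0.0197 counts per count of Cycs in unexposed C57BL/6J and 0.00485 ± 0.00531 in unexposed FVB/N, the latter from a Cyct value under the limit of detection.

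**Figure D3:**
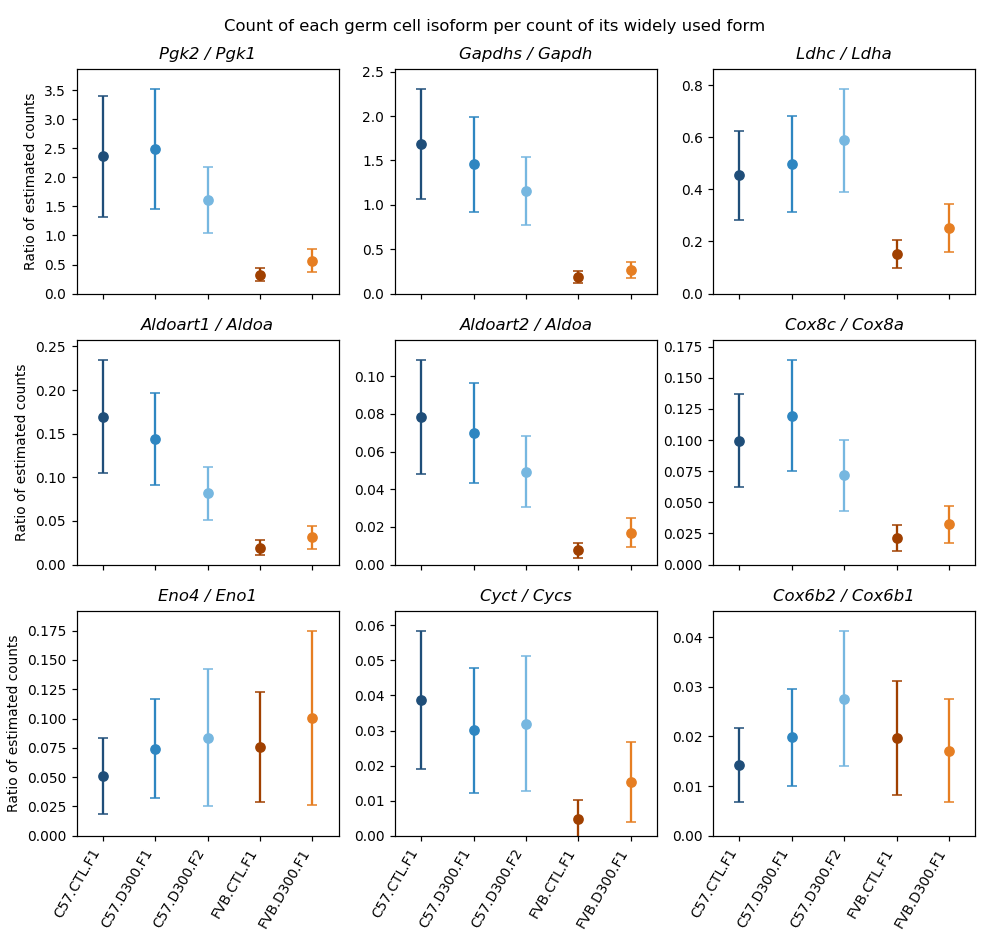
Estimated count of each germ cell form divided by that of its widely used form in the same condition (linear axis from 0, a scale of its own in each panel); points are ratios of the condition values and bars 1 SD propagated from Cuffdiff's model. Pgk2 per Pgk1 is 1.61 or more in the C57BL/6J conditions and 0.566 or less in the FVB/N conditions, and the ratios of Eno4 and Cox6b2 do not separate the strains.

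The members were also set against the geometric mean of the 15 haploid germ cell RNAs, with 1 added to each count, which was 2259, 2033 and 972 in the vehicle F1, DEHP F1 and F2 of C57BL/6J and 235 and 310 in the vehicle and DEHP F1 of FVB/N. The log2 count of Pgk2 spanned 3.68 units over the conditions as deposited and 0.42 units against this mean. The spans were 3.51 and 0.43 for Gapdhs, 3.45 and 0.40 for Aldoart1, 3.65 and 0.65 for Aldoart2, 2.40 and 1.04 for Ldhc and 2.17 and 1.23 for Cox8c. Thus 6 of 9 members varied less against the haploid RNAs than as deposited, beside 11.7% of 17701 genes and 1 of 13 measured genes of the widely used forms. The haploid mean itself fell from 2259 to 235 between the unexposed strains, so a gene with a similar fall narrows by construction. These shares therefore restate the low FVB/N counts and are not separate support. The span widened for the other 3 members, from 1.25 to 2.34 units in Eno4, from 0.95 to 2.72 in Cox6b2 and from 2.23 to 2.37 in Cyct. Against the haploid RNAs, Ldhc was lowest in the C57BL/6J F1 conditions, at -1.74 and -1.75 log2 units, and stood at -0.88 in FVB.CTL.F1. Pgk2 lay above the haploid mean in every condition, by 0.61 log2 units in C57.CTL.F1 and by 0.19 in FVB.CTL.F1.

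**Figure D4:**
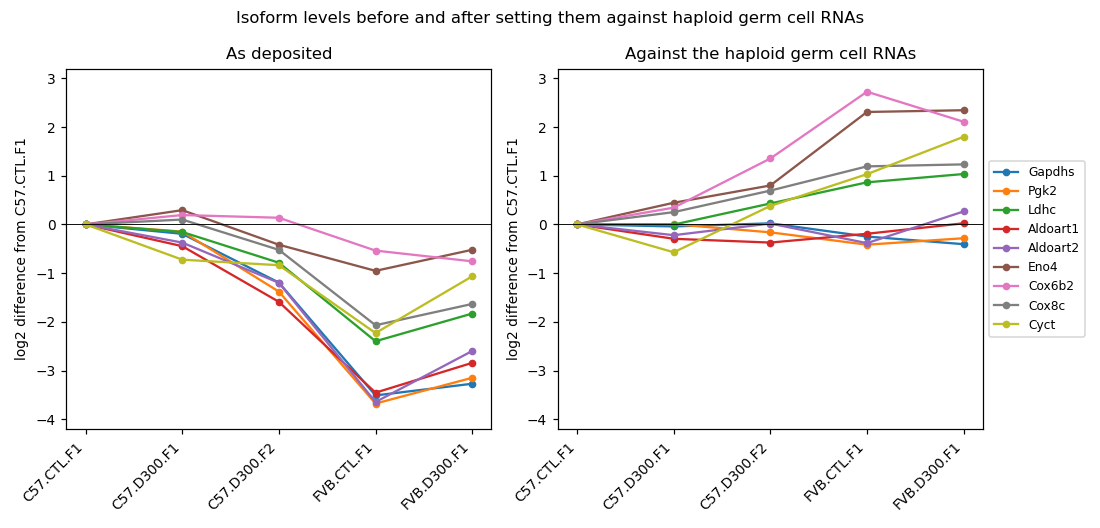
Log2 difference of each member from its own value in C57.CTL.F1, from the count with 1 added as deposited (left) and after setting it against the geometric mean of 15 haploid germ cell RNAs (right); the lines only join the values of a gene. Pgk2, Gapdhs, Aldoart1 and Aldoart2 span 3.45 to 3.68 units on the left and 0.40 to 0.65 on the right, while Eno4 and Cox6b2 move up to 2.34 and 2.72 units on the right.

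By their median, the genes of the widely used forms differed less between the strains than the members, and in both directions. Between FVB.CTL.F1 and C57.CTL.F1, their median was -0.68, and 3 of the 13 with enough counts were lower and 1 higher by the threshold. Of all genes, 18.8% were lower in this comparison, and the share higher was not computed. Eno1, the common enolase, went from 691 ± 371 to 234 ± 110 counts between the unexposed strains, Cox6b1 from 1054 ± 278 to 507 ± 120.3, and Eno2, the neuronal enolase, from 32.7 ± 11.7 to 81.0 ± 22.5. Within the new libraries, 2 of 13 were lower in unexposed FVB/N than in F2, among them Ldhb, beside 11.6% of all genes. The median of the widely used forms was 0.10.

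Among 14 other glycolysis genes, the germ cell pattern was seen in the counts of Hk1 and Pgam2. Hk1 encodes the hexokinase of which a germ cell form is bound to the sperm tail, and the table does not separate its transcripts. It had 7614 ± 3263, 6113 ± 2215 and 3221 ± 987 counts in the C57BL/6J conditions, with F2 last, and 846 ± 205 and 889 ± 222 in the FVB/N conditions. Pgam2, the phosphoglycerate mutase of muscle, which is also found in sperm, had 258 ± 65.1, 284 ± 67.3 and 158 ± 39.0 counts in the C57BL/6J conditions and 41.4 ± 13.4 and 54.2 ± 17.7 in the FVB/N conditions. Against the haploid RNAs, these genes spanned 0.33 and 0.65 log2 units, as little as the aldolase copies. Of the 14 genes, 6 were lower by the threshold in unexposed FVB/N than in unexposed C57BL/6J, beside 18.8% of all genes. Among these 6 were Hk1, Pgam2, Pklr, Bpgm and Tpi1. Pklr, the pyruvate kinase of liver and red cells, had 247 ± 72.9 counts in the C57BL/6J vehicle F1 and 13.1 ± 5.70 in the F2, a wider difference than in Hk1. It had 35.8 ± 12.3 counts in FVB.CTL.F1, above its F2 value, while the liver markers were lower there than in F2. From which cells the Pklr RNA came was not tested. Bpgm, the bisphosphoglycerate mutase known from red cells, was the only glycolysis gene past the threshold between the C57BL/6J F1 conditions, with 268 ± 89.8 and 110 ± 28.9 counts. Of all genes, 2.24% were past it in either direction. Hk3, the hexokinase of white blood cells, had 68.9 ± 22.0 counts in C57.D300.F1 and 24.7 ± 17.0 in FVB.D300.F1.

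Another 7 energy genes of the testis were listed beside the members. In unexposed FVB/N against unexposed C57BL/6J, 5 of the 6 with enough counts were lower by the threshold, beside 18.8% of all genes. The median of the listed genes was -1.95. Gk2 and Gykl1, the germ cell glycerol kinase genes, had 142 ± 38.3 and 82.4 ± 23.1 counts in unexposed C57BL/6J and 15.9 ± 6.78 and 14.2 ± 6.16 in unexposed FVB/N. Ldhal6b, a lactate dehydrogenase copy, had 106 ± 51.4 and 26.6 ± 19.7 counts, Pdha2, the germ cell subunit of pyruvate dehydrogenase, 23.8 ± 8.83 and 9.99 ± 4.90, and Cox7b2, a germ cell form of subunit VIIb, 22.6 ± 8.54 and 3.15 ± 2.45. The same 5 genes were lower in FVB/N within the new libraries, beside 11.6% of all genes. Pfkfb4, a regulator of glycolysis, did not pass the threshold, with 334 ± 78.2 and 310.0 ± 72.1 counts in C57.CTL.F1 and FVB.CTL.F1.

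The other 11 nuclear subunits of cytochrome c oxidase, most of which serve all tissues, had a median of -0.25 between the unexposed strains, beside -2.07 for Cox8c and -0.54 for Cox6b2. Of 9 with enough counts, Cox7b was lower, from 836 ± 224 to 406 ± 96.6 counts, and Cox4i2 higher, with a difference within the model SD. Of all genes, 18.8% were lower in this comparison. After DEHP in C57BL/6J, 2 of 10 were higher by the threshold, beside 2.24% of all genes in either direction. Both subunits lay beyond the model SD of their counts. These were the muscle forms Cox6a2, at 1.79 log2 units from 3.08 to 13.1 counts, and Cox7a1, at 1.45 from 4.64 to 14.4 counts. In F2 against C57.CTL.F1, only Cox7c of 9 with enough counts was past the threshold, at 60.2 ± 17.7 against 133 ± 35.0 counts. Of all genes, 10.2% were lower there. Between the DEHP conditions of the strains, Cox7b, Cox5a, Cox6a2 and Cox7a1 were lower in FVB/N, beside 19.9% of all genes. Cox4i2 was higher, again within the model SD.

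The genes whose counts over the 5 conditions were most like the members' median profile were sought among 8045 genes outside the lists with at least 100 counts in every condition, by the root mean square difference of centred log2 values. The closest was the row named Mir22, whose transcript the table does not describe, at 0.0979 log2 units. It was followed by Dyrk1b, a protein kinase, at 0.127, Hydin, a protein of motile cilia and sperm tails, at 0.138, Spata6, which forms the sperm head-tail connection, at 0.139, and Rnf138, a ubiquitin ligase, at 0.148. The median of all compared genes was 0.989. Among the members, Ldhc was at 0.0291 and Cox8c at 0.108 from this median profile, which was built from them, and Cox6b2 was farthest with 0.648. Spata6 had 1013, 915 and 496 counts in the C57BL/6J conditions and 210 and 259 in the FVB/N conditions.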

How the data were processed

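RNA of mouse cauda sperm was sequenced by all-RNA-seq, in which total RNA is depleted of ribosomal RNA, fragmented and end-treated so that all RNA types are ligated. Per the labels, base calls came from CASAVA 1.8.2. The authors clipped the RA3 adapter, kept reads of at least 18 bases, mapped them to mm10 with TopHat (strand-specific) and quantified them with Cuffdiff, whose options and annotation release are not given in the sources used here. The deposited values are a signal, an estimated fragment count per gene and condition scaled by Cuffdiff, with a model variance and a status. In all, 15 columns were used, and estimates that failed, for 71 genes in at least 1 condition, were treated as missing.

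Log2 ratios were computed with 1 added to each count, for genes that reached 10 counts in either condition of a pair, with a threshold of 1 log2 unit and 2 as an alternative. SDs of ratios were propagated from the model variance. The detection floor was 3 counts. With 1 value per condition, no test was possible. The members and gene lists were chosen with earlier results of these data known. Named were the members, their counterparts, up to 6 genes past the threshold in each of 4 lists of energy genes (Tpi1 was added after its value was seen), and the 5 genes nearest in profile. The results of some genes under this rule are not reported here. Alternatives were 4 scalings, pseudocounts of 0.1 and 10, minimum counts of 100 and none, and a difference beyond the model SD. Gene models and coding sequences came from GENCODE M21, aligned with Biopython 1.88, and promoters from RefSeq on GRCm38.p6. The computation of the ratios was checked on simulated counts with counting error only and large changes set in well-counted genes. That check does not cover low counts, the model variance or changes near the threshold. Python 3.11.15, numpy 2.4.6, pandas 2.3.3 and matplotlib 3.10.9 were used. Lists for meiotic germ cells, blood and smooth muscle were also summed per condition: 10 meiotic genes had 346 to 819 counts, 8 blood genes 2910 to 10446 and 8 smooth muscle and connective tissue genes 27037 to 44387.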

Additional observations from a re-analysis of the deposited data

Results flagged for a closer look

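In 3 genes the value of the DEHP condition was below that of the vehicle condition in C57BL/6J and above it in FVB/N, with a difference between the strains of at least 1 log2 unit. The difference was 1.06 log2 units for Aldoart1, with 355 and 260.1 counts in C57.CTL.F1 and C57.D300.F1 and 31.5 and 48.6 in FVB.CTL.F1 and FVB.D300.F1, and it was 0.78 with equal totals, 0.93 with 10 in place of 1 added to each count and 0.52 scaled to the haploid RNAs. It was 1.42 for Aldoart2, with 164 and 126 counts in C57BL/6J and 12.2 and 26.2 in FVB/N, and it was 0.92 scaled to the haploid RNAs. It was 1.89 for Cyct, with 12.5 and 7.15 counts in C57BL/6J and 1.87 and 5.42 in FVB/N. Of these counts, only the first reached the minimum of 10. The count of 1.87 lay under the limit of detection of 3 counts, and the difference was 1.41 with 3 in its place and 0.77 with 10 added to each count. The library sets of the strains differ, and with 1 value per condition the difference was not tested.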

How the results depend on the processing

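Of 80 ratios, medians and strain differences, all 80 kept their sign under median-of-ratios scaling and pseudocounts of 0.1 and 10, 78 under the upper quartile and 76 under equal totals, and those that turned under the last 2 had as-reported sizes of at most 0.15 log2 units. Scaled to the haploid RNAs, 39 kept it and 41 turned. That scaling shifts the median of all genes by 3.22 log2 units between the unexposed strains, 2.68 between the DEHP-exposed strains, 2.03 for FVB.CTL.F1 against C57.D300.F2, and 1.19 and 1.04 for F2 against C57.CTL.F1 and C57.D300.F1. Equal totals shift it by at most 0.31 and the upper quartile by at most 0.22. Scaled to the haploid RNAs, the members' median was 0.24 for F2 against C57.CTL.F1, 0.32 for F2 against C57.D300.F1, 0.44 for the unexposed strains, 0.91 for the DEHP-exposed strains and 0.20 for FVB.CTL.F1 against C57.D300.F2, and 0 members were lower by the threshold in each. Of all genes, 3.30%, 3.13%, 1.935%, 2.04% and 0.451% were then lower by the threshold, in the same order. For F2 that scaling turned 6 members against C57.CTL.F1 and 7 against C57.D300.F1, all but Pgk2, Aldoart1 and, in the first, Cox6b2, which was then higher at 1.22, beside a median of 1.15 for all genes. It turned Gapdhs to 0.021 (against C57.CTL.F1) and 0.063 (against C57.D300.F1), and Aldoart2 to 0.0064, Ldhc to 0.43, Eno4 to 0.74, Cox8c to 0.66 and Cyct to 0.24 against C57.CTL.F1. Between the unexposed strains it turned Ldhc to 0.85, Eno4 to 2.18, Cox6b2 to 2.47, Cox8c to 1.08 and Cyct to 0.44, so that 3 members were higher by the threshold, each below the median of all genes of 3.19. Between the DEHP-exposed strains it turned Ldhc to 1.03, Aldoart1 to 0.29, Aldoart2 to 0.44, Eno4 to 1.81, Cox6b2 to 1.55, Cox8c to 0.91 and Cyct to 1.98, and for FVB.CTL.F1 against C57.D300.F2 it turned Ldhc to 0.43, Aldoart1 to 0.15, Eno4 to 1.44, Cox6b2 to 1.26, Cox8c to 0.42 and Cyct to 0.20. By its construction that scaling sets the mean of the haploid RNAs equal in all conditions. The 1 member past the threshold after DEHP in FVB/N became 0 with equal totals, a pseudocount of 10, a minimum of 100 counts or a threshold of 2 log2 units, and 2 with no minimum, which adds Cyct. Scaled to the haploid RNAs it was Cyct, at 1.03 from 1.87 counts as deposited, in place of Aldoart2, at 0.70, and the members' median went from 0.53 to 0.13. The 4 members lower in F2 than in C57.CTL.F1 became 2 with equal totals or the upper quartile and 0 at 2 log2 units, and the 3 lower than in C57.D300.F1 became 1 and 0 under the same settings. The 6 lower in unexposed FVB/N than in F2 became 3 at 2 log2 units. The share of all genes past the threshold after DEHP, 2.24% in C57BL/6J and 2.16% in FVB/N, was 1.15% and 1.18% with a pseudocount of 10 and 1.43% in both strains with a minimum of 100 counts, and in FVB/N 3.43% with no minimum. The share lower in unexposed FVB/N than in F2, 11.6%, was 6.94% and 6.37% under these first 2 settings, and that lower in F2 than in C57.CTL.F1, 10.2%, was 6.42% with equal totals. No paired analysis was possible because the table holds 1 value per condition, and leaving out single libraries was not run for the same reason. Depth limits the statements on Cyct and Cox6b2, with at most 17.2 counts in any condition.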
